A study of Mus musculus with 10 samples.

Results

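CD4 T cells of 2 inbred mouse strains were compared. The series held 10 RNA-seq libraries of sorted and stimulated CD4+ T cells, 3 labelled Balb/c and 7 labelled C57BL/6, and the strain label alone chose the members of each side. The study's own question was the effect of the cytokine TSLP (thymic stromal lymphopoietin) on CD4+ T cells in mice with breast tumors, so each strain held TEST and CONTROL libraries: 2 TEST and 1 CONTROL in Balb/c, and 4 TEST and 3 CONTROL in C57BL/6. The strain difference was therefore fitted with TEST or CONTROL as a covariate. All cells were, according to the labels, cultured for 5 h with aCD3, aCD28, IL-2 and TSLP, whereas the study's text speaks of freshly sorted cells.

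The strains did not carry the same genotypes. The Balb/c mice carried Rag1 alleles: Balb/c 1 (TEST) was a K14-TSLP +/tg, MMTV-PyMT +/tg, Rag1 -/- host that had received CD4+ cells, Balb/c 2 (CONTROL) was Rag1 +/- with no transgene named, and Balb/c 3 (TEST) was K14-TSLP +/tg, MMTV-PyMT +/tg, Rag1 +/-. The C57BL/6 mice carried TSLP receptor (TSLPR) alleles. C57BL/6 1, 2 and 5 (TEST) were Ly5.1 CD4+ cells given to K14-TSLP +/tg, TSLPR -/- hosts with injected PyMT tumors, and C57BL/6 3 and 4 (CONTROL) were TSLPRKO CD4+ cells given to TSLPR -/- hosts with the same tumors. C57BL/6 6 (TEST) and 7 (CONTROL) came from K14-TSLP +/tg, MMTV-PyMT +/tg mice that were TSLPR +/- and TSLPR -/-, respectively. The K14 promoter drives TSLP in keratinocytes, and the MMTV promoter drives the PyMT oncogene in mammary epithelium. C57BL/6 1 and 2 were draining and non-draining lymph node cells of the same 4 mice, C57BL/6 3 and 5 were pools of 4 and 2 mice, and the other libraries came from 1 mouse each. The source was lymph node in all libraries except C57BL/6 7, which was spleen. Strain, Rag1 or TSLPR allele, pooling and tumor model thus moved together in part, and they cannot be told apart in genes that followed them. P values measure the spread between these libraries, which was partly the spread between nodes of the same mice.

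As background, Balb/c and C57BL/6 mice differ at the major histocompatibility complex, where Balb/c carries the H2-d haplotype and C57BL/6 the H2-b haplotype, and MHC class I molecules are the proteins that show peptides to CD8+ T cells. The strains are also known to differ at families of immune genes that lie in tandem clusters, among them guanylate binding proteins, TRIM proteins and Ly6 surface proteins. The mouse reference genome was built from C57BL/6J, and Balb/c reads are compared with C57BL/6J transcripts when they are aligned to it.

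The values were FPKM (fragments scaled by transcript length and by the library's mapped fragments), so levels of different genes are per length, and the depth of the libraries was unknown. Each library listed 12780 to 14259 genes above 0. Ribosomal RNA took 10.7% to 26.0% of the summed FPKM in 9 libraries and 1.17% in C57BL/6 6, which also stood apart on the first principal component (27.4% of the variance). Only the third component (14.3%) held the 3 Balb/c libraries apart from the 7 C57BL/6 libraries. Crlf2, which encodes TSLPR, was at 0.15, 0.21 and 0.16 FPKM in the 3 libraries labelled as TSLPR-null T cells (C57BL/6 3, 4 and 7) and at 3.28 FPKM or more in the other libraries, as labelled. CD4 T cell identity genes were present in every library, with a summed level of 1945 to 2611 FPKM in Balb/c and 1456 to 2426 FPKM in C57BL/6. Summed B cell markers were at 1.35 to 2.87 FPKM in Balb/c and 2.38 to 32.3 FPKM in C57BL/6. Y-linked transcripts summed to 19.0 and 22.5 FPKM in Balb/c 1 and 2, to 0 in Balb/c 3 and to at most 0.34 FPKM in C57BL/6. The labels give no sex, whereas the paper reports age-matched females for its breast cancer work. With the X-linked gene Xist added, the Y-linked sums became 46.2, 105.2 and 148.6 FPKM in Balb/c 1, 2 and 3. In C57BL/6 they became 40.8 to 145.7 FPKM. Balb/c 1 and 2 thus held both Xist and Y-linked RNA. The source of the Y-linked transcripts in Balb/c 1 and 2 and the part of sex in the strain differences were not tested. No Y-linked gene passed the filter on low values.

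Tested were the 11092 genes that reached 1 FPKM in 3 or more libraries, and 70 genes (0.631%) differed between the strains at an adjusted p under 0.05 by limma on log2(FPKM + 1). Of these, 36 (0.325%) were higher in Balb/c and 34 (0.307%) were lower. Without the adjustment, 1018 genes were at p under 0.05. Chance alone would on average put a share of 0.05 of the tested genes there, in this and in every such count. The 70 differences were large, with a median size of 2.45 on the log2 scale and a smallest size of 1.18, while the median standard error over all genes was 0.32. All 3 Balb/c libraries lay above or below all 7 C57BL/6 libraries for 350 genes (3.16%), of which 154 were higher (1.39%) and 196 were lower (1.77%) in Balb/c, and 67 of the 70 called genes were among them. Gbp10, Cd74 and Tuba1c were the called genes whose strains overlapped. The 70 differences had the same sign within TEST and within CONTROL libraries, and the Balb/c CONTROL arm was 1 library. For the 67 non-overlapping genes, the non-overlap fixed this agreement in advance. TEST and CONTROL were also not the same contrast in both strains. The C57BL/6 CONTROL libraries were all TSLPR-null T cells, whereas the Balb/c CONTROL library had no TSLPR deletion named. A comparison of the arms between strains mixes these differences, so it cannot show that the strain difference was the same in both arms. The difference between strains was itself compared between TEST and CONTROL, and the interaction in limma called 0 genes (0%), with 247 genes at an unadjusted p under 0.05. The number of strain calls fell to 35 without Balb/c 2 and to 38 without Balb/c 3. Higher calls numbered 23, 21 and 19 without Balb/c 1, 2 and 3, and lower calls 14 and 19 without Balb/c 2 and 3. Non-overlapping genes numbered 849, 730 and 708 without Balb/c 1, 2 and 3 and 562 without C57BL/6 4. Of the 70 genes, 33 were called in every fit that left out 1 library and tested them. With the TSLPR-null T cells as a second covariate, 37 of the 70 genes kept their call, and 42 did so without those 3 libraries. Of the called genes described with their values here, H2-K1, H2-Q9, C920025E04Rik, Cd74, Gbp10, Trim30d, Hopx, Nsg2 and Hist1h4a lost the call in both of these fits, and Lxn and Odc1 in the first. Averaging C57BL/6 1 and 2, the libraries of the same mice, gave 59 calls, of which 57 were among the 70, and Cd74, Gbp10, Tuba1c and C920025E04Rik were among those lost. In such bulk libraries, fewer cells of a type and less RNA per cell cannot be told apart.

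**Figure D1:**
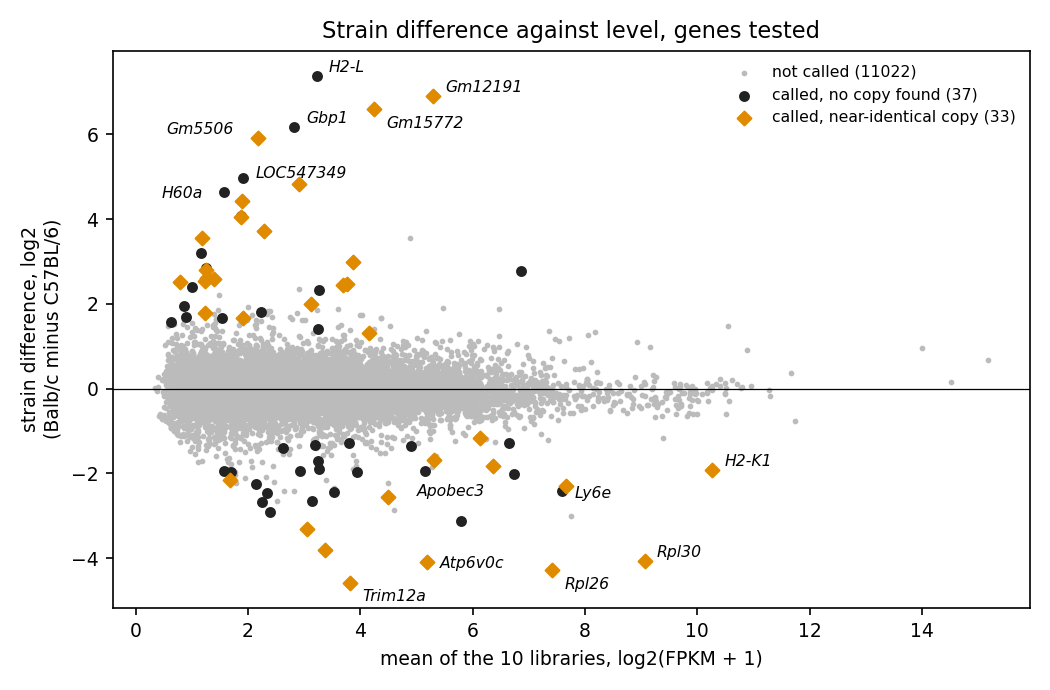
Strain difference (Balb/c minus C57BL/6, log2 scale) against the mean level of the 10 libraries in log2(FPKM + 1), 1 point per gene tested. Black points and orange diamonds are the 70 called genes, and the diamonds are the 33 of them with a near-identical copy elsewhere in the genome (5 of the black points had no transcript sequence to search with), and H2-L, Gm12191 and Gm15772 lie at the top.

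MHC class I heavy chains held the gene with the greatest difference. H2-L, which encodes the classical class I chain Ld of the H2-d haplotype, was at 358, 281 and 369 FPKM in Balb/c 1, 2 and 3. In C57BL/6 it was at 0.54 to 1.43 FPKM, with a median of 0.91. The strains did not overlap, and the difference was 7.37 ± 0.26 (SE) on the log2 scale, with an adjusted p of 1.79e-09. Mean H2-L levels were 364 and 1.02 FPKM in the TEST libraries of Balb/c and C57BL/6 and 281 and 1.06 FPKM in their CONTROL libraries. H2-D1, the other classical chain of the D region, was at 858, 859 and 1173 FPKM in Balb/c and at 606 to 1902 FPKM in C57BL/6, with a difference of -0.12 ± 0.35 (adjusted p = 0.962). H2-K1, the classical chain of the K region, had the reverse pattern to H2-L. Its levels were 417, 459 and 604 FPKM in Balb/c and 1456 to 2479 FPKM (median 1931) in C57BL/6, without overlap. The difference was -1.92 ± 0.34 (adjusted p = 0.0157), and this call was lost without C57BL/6 2, Balb/c 1, Balb/c 2 or Balb/c 3 (adjusted p = 0.052 to 0.197). It was also lost with the TSLPR-null T cells as a second covariate (adjusted p = 0.164) and without them (adjusted p = 0.0665).

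The other class I members moved in both directions. Of 22 listed class I genes, 18 were tested, 5 were called higher and 2 lower, beside 0.325% and 0.307% over all genes, and the median difference was 0.39 beside -0.01 over all genes tested. H2-Q2, a non-classical gene of the Q region, was at 37.0, 22.9 and 38.3 FPKM in Balb/c and at 0 to 5.87 FPKM in C57BL/6, where C57BL/6 6 was the high one (4.41 ± 0.48, adjusted p = 0.000205). H2-T9, of the T region, was at 28.1, 20.3 and 30.1 FPKM against 0.10 to 4.25 FPKM, again with C57BL/6 6 highest (4.07 ± 0.44, adjusted p = 0.000188). H2-Q10 rose by 2.58 ± 0.36 and H2-Q1 by 2.54 ± 0.35, each from no more than 1.69 FPKM in any C57BL/6 library. H2-Q9 was at 39.8, 55.1 and 25.3 FPKM in Balb/c and 87.8 to 407 FPKM in C57BL/6 (-2.03 ± 0.39, adjusted p = 0.0273), and this call was lost without C57BL/6 3, 4 or 7 or any 1 Balb/c library (adjusted p up to 0.225). H2-Q6 was at 130, 155 and 163 FPKM in Balb/c, but C57BL/6 ran from 0 to 257 FPKM and the difference of 3.56 did not pass (adjusted p = 0.409). H2-T23, which encodes Qa-1, was at 161.7, 131 and 111 FPKM against 72.3 to 197 FPKM (0.31 ± 0.31, adjusted p = 0.845).

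Loci outside that list that are annotated as class I or resemble it in sequence were also called. LOC547349, annotated as an MHC class I family member, was at 37.5, 39.8 and 45.5 FPKM in Balb/c and 0 to 1.40 FPKM in C57BL/6. It rose by 4.97 ± 0.34 (adjusted p = 1.47e-06). Gm11127 rose by 2.99 ± 0.32, from 3.44 to 12.7 FPKM in C57BL/6 to 60.7, 46.7 and 73.2 FPKM in Balb/c. C920025E04Rik rose by 2.46 ± 0.51 (adjusted p = 0.0462), with 9 of the 10 fits that left out 1 library above the threshold (all except that without C57BL/6 6; adjusted p = 0.0518 to 0.295). Class I genes resemble each other, and H2-K1 and H2-Q10 shared 93.5% of the aligned bases and H2-Q1 and H2-Q2 96.2%. How the counting shared reads between them was not tested, and the values of single members are uncertain. With near-identical copies summed, H2-K1, H2-Q1, H2-Q2, H2-Q10, Gm11127 and C920025E04Rik all lost their call. No transcript sequence was at hand to search for copies of H2-L, H2-T9, H2-Q9 and LOC547349. They could not be joined to any copy, so that they kept their call does not show that they have none. B2m, the light chain of all class I molecules, was at 2411, 2471 and 2282 FPKM in Balb/c and 2683 to 5355 FPKM in C57BL/6, and its difference of -0.76 ± 0.48 did not pass (adjusted p = 0.706).

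Of the 17 tested genes of class I assembly and MHC class II, only Cd74 was called, beside 0.307% lower over all genes. Cd74, the invariant chain that accompanies class II molecules, was at 58.7, 5.55 and 4.12 FPKM in Balb/c and 44.1 to 193 FPKM in C57BL/6. Balb/c 1 lay within the C57BL/6 range, and the difference of -3.12 ± 0.59 (adjusted p = 0.0262) was lost without C57BL/6 1, 2, 3 or 4, Balb/c 2 or Balb/c 3 (adjusted p = 0.0514 to 0.321). H2-Aa, a class II chain, was at 17.5, 1.02 and 0.43 FPKM against 7.54 to 68.4 FPKM (-2.34 ± 0.74, adjusted p = 0.308). These genes are made by B cells and other antigen-presenting cells. Of the 10 B cell markers, 4 were tested and none was called, and their sums of 1.35, 2.87 and 1.99 FPKM in Balb/c overlapped with the C57BL/6 range of 2.38 to 32.3 FPKM through Balb/c 2. The 7 dendritic cell markers summed to 3.36 to 11.3 FPKM in Balb/c and 2.62 to 7.66 FPKM in C57BL/6. Of these, 2 were tested, both had positive differences (median 0.51) and none was called. The 10 monocyte and macrophage markers summed to 2.96 to 9.41 FPKM in Balb/c and 5.30 to 20.1 FPKM in C57BL/6, with 2 tested and none called. The part of such cells in the Cd74 difference was not tested. H2-Ea-ps, the class II E alpha locus, was listed at 5.12 FPKM in Balb/c 1 and at 0 in the other 9 libraries.

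**Figure D2:**
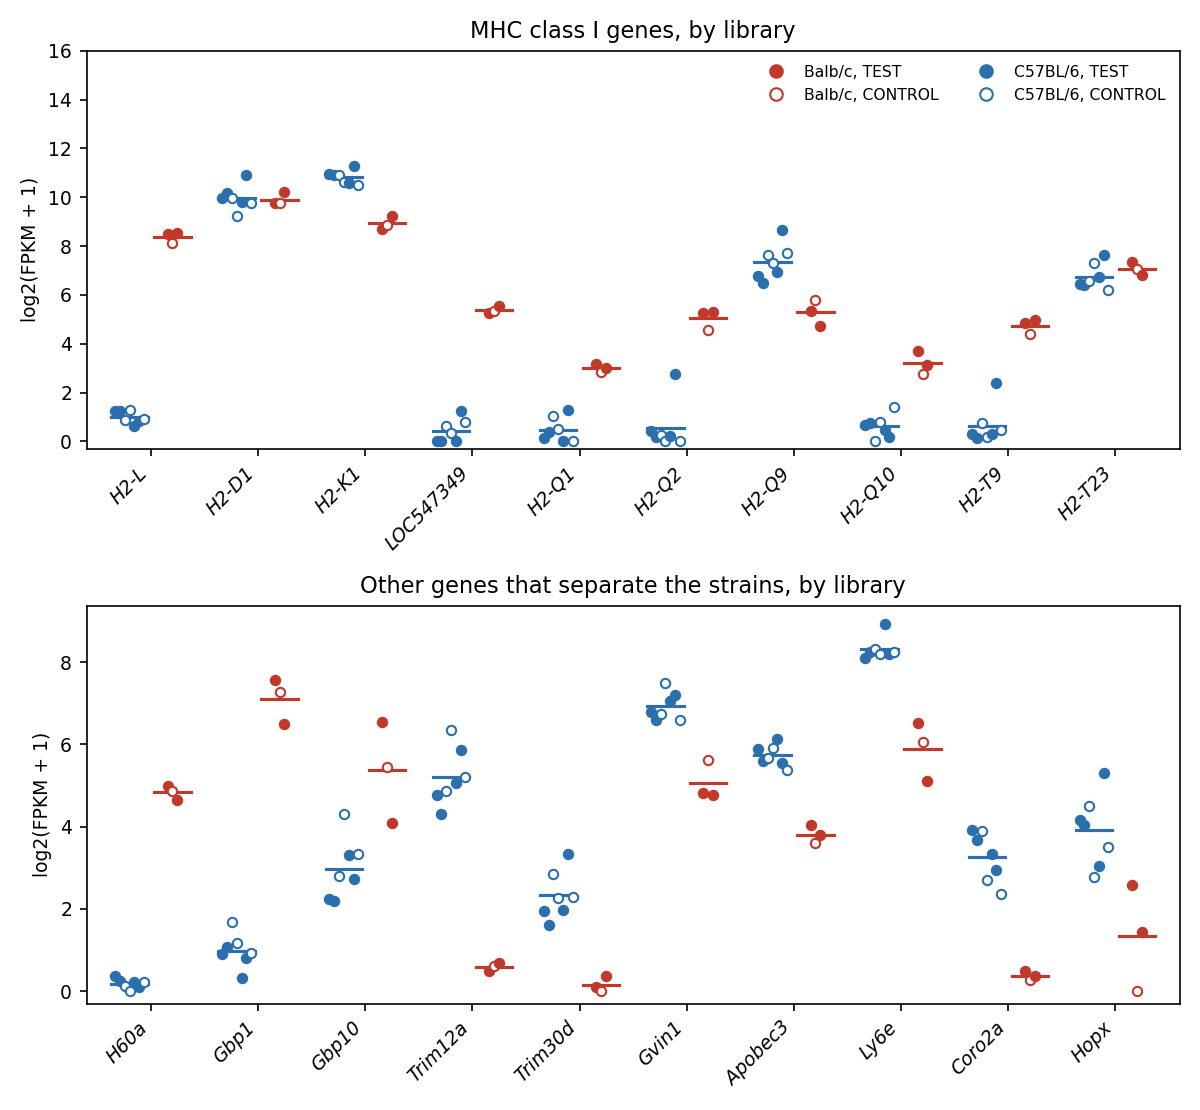
Level in log2(FPKM + 1) of MHC class I genes (top) and other strain-separating genes (bottom) in each library. Red is Balb/c and blue C57BL/6, filled points are TEST and open points CONTROL, and lines are strain means, with H2-L at 281 to 369 FPKM in Balb/c and at most 1.43 FPKM in C57BL/6, while H2-D1 overlaps.

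H60a was a further surface ligand that was on in a single strain. It encodes a ligand of the activating receptor NKG2D and is known as a minor histocompatibility antigen of Balb/c-derived strains. It was at 30.8, 27.9 and 24.3 FPKM in Balb/c 1, 2 and 3. C57BL/6 libraries were at 0 to 0.29 FPKM. The difference was 4.65 ± 0.26 (adjusted p = 2.45e-07) and was called in each of the 7 leave-one-out fits that tested it. H60b, a related ligand, was at 15.1, 22.8 and 8.89 FPKM against 0.95 to 18.9 FPKM, and its difference of 1.79 ± 0.39 did not pass (adjusted p = 0.0593). Of the 8 NKG2D ligands in the files, 3 were tested and H60a was the 1 called, beside 0.631% over all genes.

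A large share of the called genes had a near-identical copy elsewhere in the genome. A copy of at least 90% identity was found for 33 of the 65 called genes with a transcript sequence (50.8%), beside 663 of 11009 tested genes (6.02%), and a copy of at least 99% identity for 21 (32.3%) beside 203 (1.84%). In 5 pairs, a gene was called lower and its copy at another locus was called higher. These were Rpl30 and Gm12191, Rpl26 and Gm15772, Atp6v0c and Atp6v0c-ps2, Eif3j and Gm9781, and Tdg and Gm9855. Rpl30 and Rpl26 encode proteins of the large ribosomal subunit, Atp6v0c a proton-channel subunit of the vacuolar ATPase, Eif3j a subunit of translation initiation factor eIF3, and Tdg the thymine DNA glycosylase.

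The sequences show how little separates a gene from its copy. In GRCm38, the transcripts of Rpl30 and Gm12191 aligned over 348 bases with 1 difference (G96A), those of Atp6v0c and Atp6v0c-ps2 over 465 bases with 1 (T111C), those of Rpl26 and Gm15772 over 438 bases with 2 (C177T and T288C), and those of Tdg and Gm9855 over 1194 bases with 9. Positions count from the first base of the copy's transcript, with the gene's base first. The 61-base windows around the single differences of Rpl30 (chr15:34442676-34442736, minus strand, coding exon 2), Gm12191 (chr11:49678932-49678992, minus strand, processed pseudogene), Atp6v0c (chr17:24164821-24164881, minus strand, coding exon) and Atp6v0c-ps2 (chr6:37806166-37806226, plus strand, processed pseudogene) are shown because a read had to cover the base in capitals to tell the 2 loci apart within the aligned stretch. Each is written 5′ to 3′ along the transcript.
Rpl30: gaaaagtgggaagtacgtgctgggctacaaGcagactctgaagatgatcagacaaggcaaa
Gm12191: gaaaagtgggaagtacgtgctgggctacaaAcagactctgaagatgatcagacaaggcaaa
Atp6v0c: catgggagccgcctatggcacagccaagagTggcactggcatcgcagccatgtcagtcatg
Atp6v0c-ps2: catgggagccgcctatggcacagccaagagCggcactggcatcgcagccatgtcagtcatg

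The Rpl26 pair is shown at the first of its 2 differences. The Rpl26 window spans an intron, between chr11:68902421 and chr11:68903217 (plus strand, coding exons 2 and 3), and that of Gm15772 lies in a single exon (chr5:3236577-3236637, plus strand). Which base the Balb/c reads carried at these positions was not analysed here.
Rpl26: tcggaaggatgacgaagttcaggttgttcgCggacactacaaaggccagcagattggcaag
Gm15772: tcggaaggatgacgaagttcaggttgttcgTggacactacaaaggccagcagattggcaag

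Rpl30 was listed at 47.5, 74.8 and 116 FPKM in Balb/c and at 847 to 2632 FPKM (median 1220) in C57BL/6. Gm12191 was at 631, 1025 and 1853 FPKM in Balb/c and at 3.51 to 19.97 FPKM in C57BL/6. Neither overlapped, and the differences were -4.06 ± 0.38 for Rpl30 (adjusted p = 4.66e-05) and 6.90 ± 0.38 for Gm12191 (adjusted p = 2.45e-07). Summed, the pair was at 1249 ± 658 FPKM (SD, n = 3) in Balb/c and 1333 ± 607 FPKM (SD, n = 7) in C57BL/6, a difference of -0.16 ± 0.44 (adjusted p = 0.956). The copy took 93.0% to 94.1% of the summed FPKM in Balb/c and 0.133% to 2.30% in C57BL/6.

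Rpl26 showed the same opposition. It was at 10.2, 31.3 and 27.4 FPKM in Balb/c and 213 to 1881 FPKM in C57BL/6 (-4.28 ± 0.55, adjusted p = 0.000959), and C57BL/6 6 was the library at 1881 FPKM. Gm15772 was at 339, 438 and 626 FPKM in Balb/c and 1.66 to 7.97 FPKM in C57BL/6 (6.59 ± 0.37, adjusted p = 2.45e-07). The sum of Rpl26 and Gm15772 differed by 0.13 ± 0.51 (adjusted p = 0.974). Atp6v0c was at 7.18, 3.27 and 2.90 FPKM against 52.3 to 155 FPKM (-4.09 ± 0.28), and Atp6v0c-ps2 at 74.0, 55.9 and 106 FPKM against 0.33 to 6.71 FPKM (4.82 ± 0.50). None of these ranges overlapped, and the sum of the Atp6v0c pair differed by -0.15 ± 0.23 (adjusted p = 0.912).

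Tdg and Eif3j behaved alike at lower levels. Tdg was at 0.88, 0.31 and 0.94 FPKM in Balb/c and 10.1 to 29.2 FPKM in C57BL/6, while Gm9855 was at 12.6, 10.3 and 12.6 FPKM and at most 0.24 FPKM. Their sum differed by -0.30 ± 0.29 (adjusted p = 0.834). Eif3j fell by 2.55 ± 0.24 on the log2 scale and Gm9781 rose by 4.06 ± 0.40, and their sum differed by -0.30 ± 0.23 (adjusted p = 0.778). Over the 5 pairs, the copy took 77.5% to 97.3% of the summed FPKM in Balb/c and 0% to 11.4% in C57BL/6, and no sum was called.

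**Figure D3:**
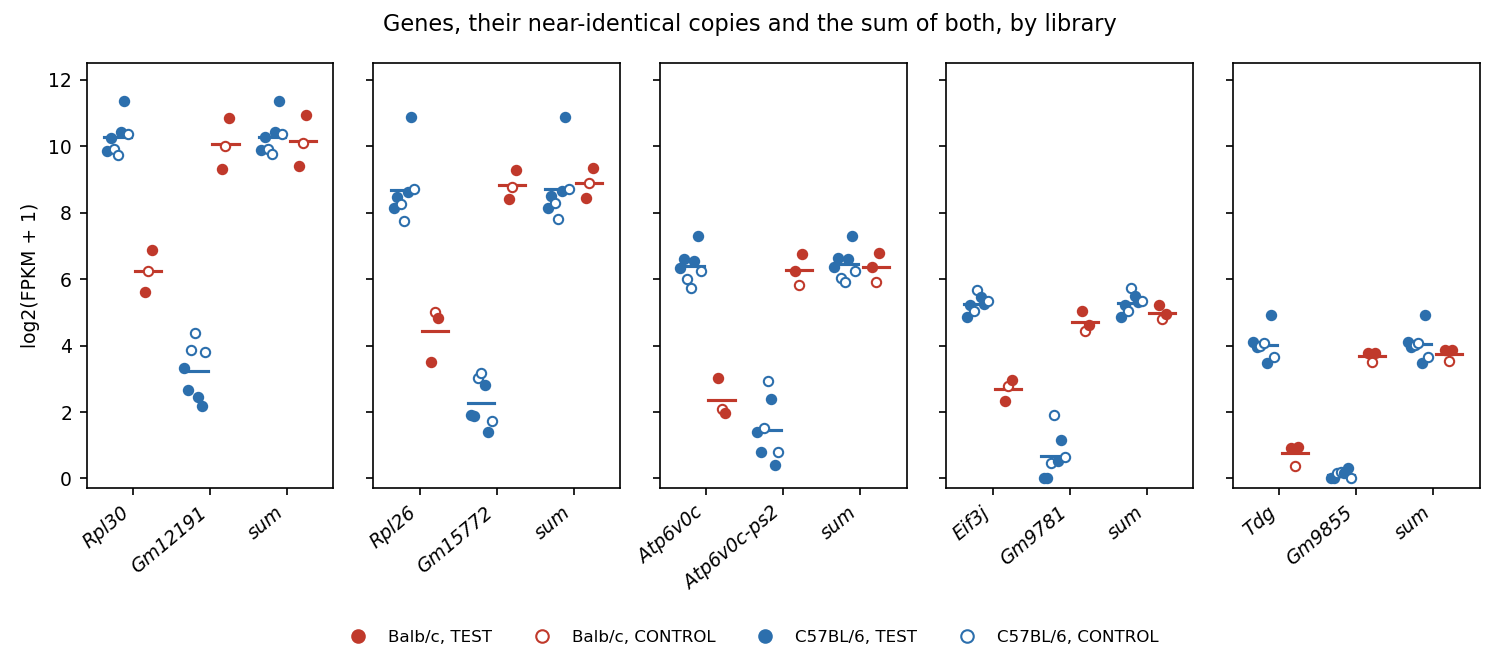
Level in log2(FPKM + 1) of 5 genes, their near-identical copies and the sum of both, in each library (red Balb/c, blue C57BL/6, filled TEST, open CONTROL, lines for strain means). The gene is low and the copy high in all 3 Balb/c libraries, and the sums of the strains overlap, with differences of -0.30 to 0.13.

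The same held in part for other pairs of at least 99% identity. Of 116 such pairs with both genes tested, 18 had at least 1 called gene, 14 of the 18 had differences of opposite sign, and the sum was called in 1, that of 9030025P20Rik and Gm3435 (2.02 ± 0.29, adjusted p = 0.00263). Of the 98 pairs with no called gene, 38 had opposite signs. Gm5506, annotated as Eno1b and a copy of the glycolytic enzyme gene Eno1, was at 83.9, 56.7 and 99.3 FPKM in Balb/c and 0 to 1.72 FPKM in C57BL/6 (5.92 ± 0.36). Its sum with Eno1 differed by 0.03 ± 0.22 (adjusted p = 0.983). Gm5801, a copy of the ubiquitin-conjugating enzyme gene Ube2j2, rose by 2.52 ± 0.26, and their sum differed by 0.16 ± 0.29. When every set of near-identical copies was summed into 1 entry, a choice made after the data were seen, 34 of 10734 entries (0.317%) were called, and 33 of the 70 genes kept a call while 37 did not. The 10 entries with the smallest adjusted p were H2-L, Gbp1, H60a, LOC547349, Pianp, H2-T9, Apobec3, Coro2a, Ly6e and Marveld2, for which no copy was found or no sequence was at hand.

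Among genes induced by interferon, single members of large families separated the strains. Gbp1 (annotated as Gbp2b, a guanylate binding protein, which are GTPases that act against intracellular microbes) was at 189, 153 and 88.5 FPKM in Balb/c. In C57BL/6 it was at 0.26 to 2.21 FPKM, with a median of 0.91. The difference was 6.16 ± 0.31 (adjusted p = 1.39e-07). Of the 11 guanylate binding proteins, all tested, 2 were called higher and none lower, beside 0.325% higher over all genes, and the median difference was 0.51 beside -0.01. Gbp10, the second, was at 93.1, 42.9 and 16.1 FPKM against 3.54 to 18.8 FPKM, so that Balb/c 3 lay within the C57BL/6 range (2.45 ± 0.48, adjusted p = 0.0316). This call was lost without C57BL/6 1, 2, 3 or 7, Balb/c 1 or Balb/c 2 (adjusted p = 0.0586 to 0.166), and its sum with Gbp6, which is 99.2% identical, differed by 0.16 ± 0.44. Gbp2, a further member, was at 194, 132 and 116 FPKM against 107 to 452 FPKM (-0.48 ± 0.41, adjusted p = 0.804).

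The TRIM5 and TRIM30 cluster on chromosome 7 held 3 called genes of 8 tested, beside 0.631% over all genes. These genes encode ubiquitin ligases of antiviral defence. Trim12a was at 0.40, 0.53 and 0.61 FPKM in Balb/c and 18.9 to 80.8 FPKM (median 32.3) in C57BL/6. The difference of -4.58 ± 0.36 (adjusted p = 9.12e-06) was the greatest of the decreases, whereas the neighbor Trim12c was at 26.3, 35.1 and 31.7 FPKM against 16.9 to 32.7 FPKM (0.44 ± 0.25, adjusted p = 0.646). The transcripts of Trim12a and Trim12c shared 96.0% of the aligned bases, and their sum differed by -0.86 ± 0.30 (adjusted p = 0.387). Trim30d was at 0.07, 0 and 0.30 FPKM against 2.06 to 9.10 FPKM (-2.16 ± 0.37, adjusted p = 0.0141), a call lost without any 1 of the Balb/c libraries (adjusted p = 0.06 to 0.207). Trim34b was at 8.23, 7.83 and 8.48 FPKM against 0 to 1.35 FPKM (2.80 ± 0.32), its copy Trim34a was at 5.79, 5.91 and 5.80 FPKM against 7.42 to 22.7 FPKM (-1.10 ± 0.31, adjusted p = 0.223), and their sum differed by -0.00 ± 0.30.

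Gvin1, a very large interferon-inducible GTPase, was at 27.3, 48.0 and 26.2 FPKM in Balb/c and 95.2 to 180.2 FPKM in C57BL/6 (-1.83 ± 0.26, adjusted p = 0.00271). Its copy Gm4070 differed by 1.12, and the sum by -0.19 ± 0.31 (adjusted p = 0.920). Gm18853, of the same cluster, fell by 3.82 ± 0.36 on the log2 scale, and its sum with the copy Gm17757 differed by 0.07 ± 0.30. Ifi204, a p200 protein that senses DNA, was at 7.5, 13.4 and 3.74 FPKM against 0.09 to 3.38 FPKM. The strains did not overlap for Ifi204, but the difference of 2.22 ± 0.47 did not pass (adjusted p = 0.0512). Of the 22 tested general interferon response genes, none was called, beside 0.631% over all genes, a share at which 22 genes mostly hold none. Their median difference was -0.30 beside -0.01 over all genes.

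Apobec3, a cytidine deaminase that restricts retroviruses, was at 15.3, 11.1 and 12.8 FPKM in Balb/c. It was at 40.8 to 69.5 FPKM, with a median of 50.1, in C57BL/6. The difference was -1.95 ± 0.22 (adjusted p = 0.000241), and it was the 1 called gene of 7 retroviral restriction genes tested, beside 0.307% lower over all genes. It was -1.88 within TEST libraries and -2.06 within CONTROL libraries, where the smaller numbers left the adjusted p at 0.0627 and 0.0891.

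Ly6 proteins are small lipid-anchored surface proteins, some of which mark T cell activation. Ly6e was at 90, 65.8 and 33.8 FPKM in Balb/c and 273 to 486 FPKM (median 302) in C57BL/6. The strains did not overlap, and the difference was -2.42 ± 0.30 (adjusted p = 0.000726). Ly6a (Sca-1) was at 279, 47.1 and 9.26 FPKM in Balb/c and 264 to 737 FPKM in C57BL/6, so that Balb/c 1 lay within the C57BL/6 range. Its difference of -3.01 ± 0.70 did not pass (adjusted p = 0.0884), nor did that of Ly6c1 (-2.85 ± 0.72, adjusted p = 0.133). Of 8 Ly6 genes tested, 1 was called, beside 0.307% lower over all genes, 7 had negative differences and the median was -1.05 beside -0.01.

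Further genes with no near copy separated the strains. Coro2a, an actin-binding coronin, was at 0.41, 0.21 and 0.29 FPKM in Balb/c and 4.12 to 14.1 FPKM in C57BL/6 (-2.92 ± 0.36, adjusted p = 0.000627). Coro2a and Trim30d were the 2 genes at 2 FPKM or more in every C57BL/6 library and under 0.5 FPKM in every Balb/c library, and H60a, Gm5801 and Gm9855 were the 3 with the reverse pattern. These 5 genes became 8 without Balb/c 1 and 12 without Balb/c 3. Marveld2, which encodes tricellulin of epithelial junctions, was at 1.57, 0.37 and 0 FPKM against 6.43 to 10.2 FPKM (-2.47 ± 0.32, adjusted p = 0.00123). Pianp was at 11.4, 6.79 and 11.7 FPKM against 0 to 0.59 FPKM (3.20 ± 0.29, adjusted p = 4.16e-05). Scg5, a chaperone of neuroendocrine secretion, was at 8.29, 3.82 and 4.92 FPKM against 0 to 1.38 FPKM (2.41 ± 0.35, adjusted p = 0.00334). These 4 genes were called in every leave-one-out fit that tested them.

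Other calls were lost when a single library was left out. Lxn, a carboxypeptidase inhibitor, was at 1.12, 0 and 0.21 FPKM in Balb/c and 1.20 to 18.5 FPKM in C57BL/6 (-2.68 ± 0.45), and its call was lost without Balb/c 2 or 3 (adjusted p = 0.0602 and 0.105). Hopx, a homeodomain protein, was at 4.99, 0 and 1.69 FPKM against 5.88 to 38.8 FPKM (-2.66 ± 0.51), and its call was lost without C57BL/6 1 or 7 or Balb/c 2 or 3 (adjusted p = 0.0514 to 0.356). Nsg2 fell by 2.45 ± 0.44 on the log2 scale, with a call lost without Balb/c 2 (adjusted p = 0.168), with the TSLPR-null T cells as a second covariate (adjusted p = 0.156) and without them (adjusted p = 0.120). Odc1, ornithine decarboxylase of polyamine synthesis, was at 86.1, 50.1 and 62.6 FPKM against 165 to 658 FPKM (-2.30 ± 0.40), a call lost without Balb/c 2 or 3 (adjusted p = 0.102 and 0.29). Its sum with the 93.5% identical Gm15645 differed by -1.20 ± 0.33 (adjusted p = 0.205). Hist1h4a, 1 of many histone H4 genes with near-identical coding sequence, was at 16.4, 35.0 and 41.5 FPKM against 0 to 8.92 FPKM (3.72 ± 0.62), a call lost without Balb/c 2 or 3 (adjusted p = 0.105 and 0.172). Erdr1 was at 554, 265 and 549 FPKM against 34.8 to 154 FPKM (2.76 ± 0.42), a call lost without Balb/c 3 (adjusted p = 0.0605).

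No gene of the T helper and activation lists was called, beside 0.631% over all genes. At that share, lists of 8 to 16 genes mostly hold none, so this does not show that the strains were alike. Median differences were -0.63 for the 16 tested Th2 genes, -0.05 for 13 Th1 genes and 1.18 for 10 Th17 genes. They were 0.15 for 12 regulatory T cell genes, -0.66 for 8 T follicular helper genes and 0.04 for 15 activation genes. The median over all genes tested was -0.01. Il4 was at 31.6, 3.80 and 52.2 FPKM in Balb/c and 5.25 to 325 FPKM in C57BL/6 (-0.52 ± 0.63, adjusted p = 0.886). In both strains, the CONTROL libraries were at the low end for Il4. Il5 was at 18.7, 0.89 and 8.70 FPKM against 1.41 to 413 FPKM (-1.93 ± 0.62, adjusted p = 0.321), and Il13 was at 250, 3.85 and 60.1 FPKM against 6.80 to 698 FPKM (-0.42 ± 0.65, adjusted p = 0.912). Foxp3, which defines regulatory T cells, stood at 106, 165 and 90.3 FPKM against 21.9 to 233 FPKM (0.61 ± 0.46, adjusted p = 0.771).

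Several effector cytokine genes were high in a single Balb/c library. Il17a was at 156.5 FPKM in Balb/c 1, at 0.47 and 1.39 FPKM in Balb/c 2 and 3, and at 0.26 to 8.68 FPKM in C57BL/6 (1.58 ± 1.09, adjusted p = 0.745). Among the Balb/c libraries, Il17f at 133 FPKM, Il22 at 56.8 FPKM and Ifng at 167 FPKM were also high in Balb/c 1 alone. Balb/c 2 and 3 were at 0.23 and 0.59 FPKM for Il17f, 0 for Il22 and 20.8 and 4.62 FPKM for Ifng. Tmem176b and Tmem176a, also on the Th17 list, were at 37.7 and 57.9 FPKM in Balb/c 1 and at 10.96 and 6.25 FPKM in Balb/c 3, above every C57BL/6 library, but at 1.04 and 0.27 FPKM in Balb/c 2. Balb/c 1 was the library of CD4+ cells transferred into a Rag1 -/- host, and no other Balb/c library was of that kind. Of 17 proliferation genes, 1 had a positive difference and none was called (median -0.66), beside 0.631% called over all genes. Mcm3, a replication helicase subunit, was at 6.69, 8.48 and 9.10 FPKM in Balb/c and 10.3 to 26.0 FPKM in C57BL/6, without overlap (-0.94 ± 0.28, adjusted p = 0.253).

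**Figure D4:**
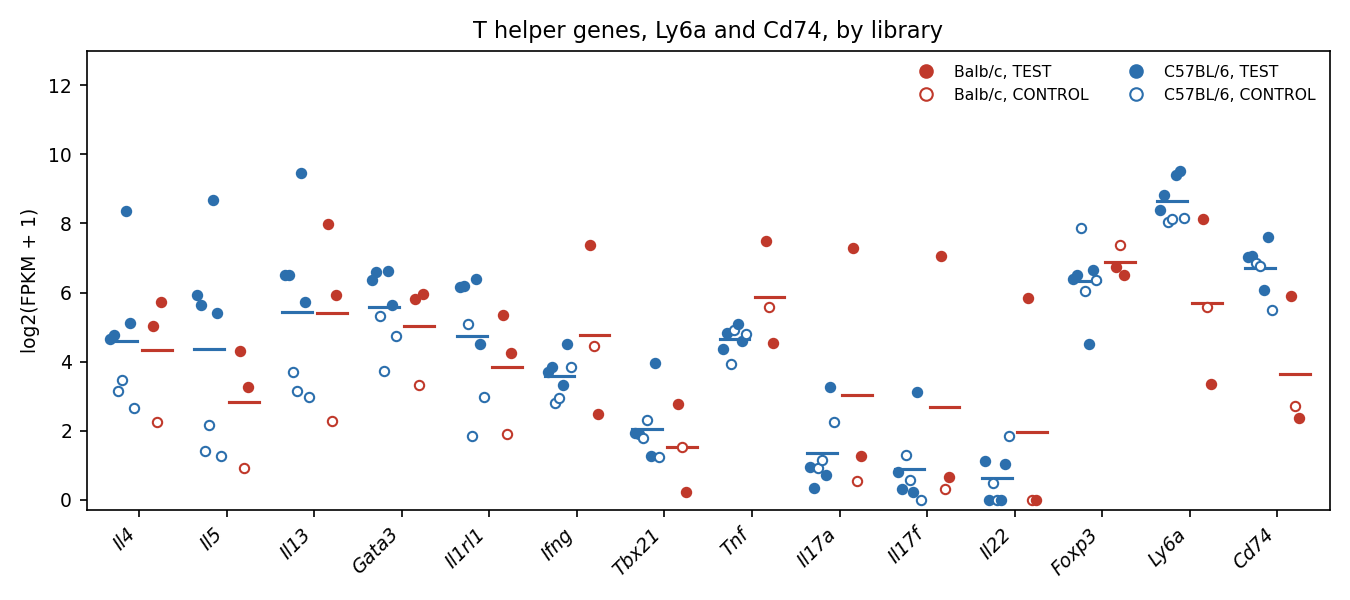
Level in log2(FPKM + 1) of T helper genes, Ly6a and Cd74 in each library (red Balb/c, blue C57BL/6, filled TEST, open CONTROL, lines for strain means). The strains overlap for every gene shown, and Il17a, Il17f and Il22 are high in 1 Balb/c library, at 156.5, 133 and 56.8 FPKM.

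By position, chromosome 17, which carries the MHC, held 13 called genes of 596 tested (2.18%), beside 0.631% over all chromosomes, and 6.71% of its tested genes had strains that did not overlap, beside 3.16%. H2-L, H2-T9 and H60a had no position in the annotation used and are in no chromosome's count. H2-Q9 and LOC547349 were listed on chromosome 17 with starts of 1714853 and 87872. Whether these are their true places on the chromosome was not checked, and the runs below were counted with them. The chromosome 17 count was 7 without Balb/c 2 and 7 without Balb/c 3. Chromosome 18 followed with 4 of 268 (1.49%) and chromosome 6 with 6 of 513 (1.17%), while chromosome 16 held none of 359. As far as positions were known, the longest runs of called genes whose starts lay within 500000 bases of the next were of 3 genes: H2-Q1, H2-Q2 and H2-Q10 at chr17:35320525-35474563, higher in Balb/c, and Trim12a, Trim34b and Trim30d at chr7:104299893-104507853, of which 1 was higher and 2 were lower (GRCm38). By class, 9 of the 111 transcribed pseudogenes tested were called higher and 1 lower (9.01%), and 22 of the 10516 protein-coding genes were called higher and 31 lower (0.504%).

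**Figure D5:**
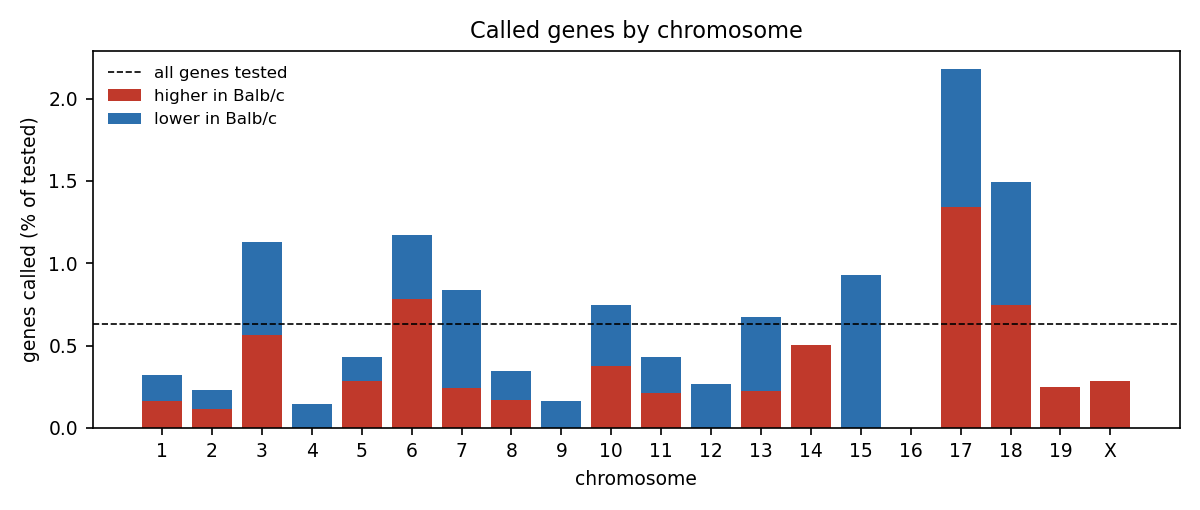
Genes called as a percentage of genes tested on each chromosome, with genes higher in Balb/c in red and lower in blue, and the dashed line at 0.631% for all genes tested. Chromosome 17 is the highest at 2.18% (13 of 596) and chromosome 16 holds none.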

How the data were processed

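FPKM values of 17457 genes were used as deposited by the authors. The submitters' processing notes name mm10 and Bowtie, BWA and RSEM, without versions. Strand of counting was not given in the sources used here, and no counts or depths were used. RefSeq GRCm38.p6 gave names and coordinates (99.7% of IDs) and sequences came from the GRCm38 genome with GENCODE M21 transcripts. The filter kept genes reaching 1 FPKM in 3 or more libraries, which were fitted with limma 3.58.1 (R 4.3.3) on log2(FPKM + 1), with strain and TEST or CONTROL as terms, a trended prior, two-sided p values and Benjamini-Hochberg adjustment. Differences on this scale understate changes of low genes. The study used a count method, which FPKM do not allow. Copies were found with BLAST+ 2.17.0 (at least 90% identity, 200 bases and 50% of the shorter transcript). In simulated data, 25.7% of changes of 1, 77.0% of 2 and 98.8% of 4 (log2) were recovered among 11092 genes, with a false share of 4.96%. Named genes were the 12 largest non-overlapping calls each way with a mean of 2 FPKM or more, called family members, up to 4 genes of each program by smallest p, and targeted and sex-linked genes; other called genes and the members set beside them were chosen after their values were seen. The comparison and lists were chosen with earlier results of these data known. Alternatives varied the pseudocount, filter, scaling, prior, weights, covariates and libraries; summing copies was added after seeing the data.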

Additional observations from a re-analysis of the deposited data

Results flagged for a closer look

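In 10 of the 78 named genes examined, 1 of the 7 C57BL/6 libraries lay far from the others, with a gap to its neighbor above Dixon's 95% critical value for the group's range. For draws from a single normal distribution, chance gives such a gap in about 1 in 20 groups. Libraries that mix arms, genotypes and tissues need not follow such a distribution, and the rate here was not tested. In C57BL/6 6, the library with the low share of ribosomal RNA, this held for H2-Q2 (5.87 FPKM), H2-T9 (4.25 FPKM), Rpl26 (1880.94 FPKM), Rpl30 (2632.07 FPKM), Il17f (7.67 FPKM) and Igfbp4 (303.08 FPKM), each the highest, and for Xist (40.8 FPKM), the lowest. The other libraries were C57BL/6 5 for Ly6e (485.79 FPKM, the highest), C57BL/6 3 for Ikzf2 (75.67 FPKM, the highest) and C57BL/6 4 for Nkg7 (0.71 FPKM, the lowest). The Balb/c group of 3 was too small for this comparison. Without C57BL/6 6, 99 genes were called between the strains, and all 70 were among them.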

How the results depend on the processing

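The 70 strain calls (36 higher, 34 lower) became 116 (60 and 56) with array weights and 41 with TSLPR-null T cells as a second covariate (15 lower). They became 19 (9 and 10) in TEST libraries only, 16 (4 and 12) in CONTROL libraries only, 19 (8 and 11) in cells that were not transferred and 34 (15 and 19) with copies summed, and 21 were lower without the TSLPR-null cells. Leaving out 1 library gave 35 to 99 calls, 19 to 53 higher and 14 to 46 lower, and the fewest higher calls came without Balb/c 3. In these 4 smaller sets of libraries (TEST, CONTROL, without TSLPR-null, not transferred), non-overlapping genes numbered 1744, 4690, 1281 and 3101 in place of 350, and genes on in 1 strain 16, 68, 10 and 39 in place of 5, as fewer libraries make non-overlap easier. Leaving out 1 library gave 384 to 849 and 5 to 12, and 5 to 8 class I and 7 to 17 chromosome 17 calls. Class I calls numbered 1, 0 and 2 in TEST, CONTROL and not transferred cells in place of 7. Chromosome 17 calls numbered 4, 1, 8 and 4 in the same 4 sets and 7 with the second covariate, in place of 13. The interaction gave 0 calls in every fit. In every setting that tested them one by one, the called genes kept their sign. For the non-overlapping genes, leaving out libraries could hardly change it. Summing copies reversed 11 genes, whose value is then that of the family: Gm12191 (-0.16), Atp6v0c-ps2 (-0.15), Gm9781 (-0.30), Gm9855 (-0.30), Rpl26 (0.13), Trim34b (-0.00243), and H2-Q1, H2-Q2, H2-Q10, Gm11127 and C920025E04Rik (-0.61 as 1 family). The cause of the other changes was not tested. No paired analysis was possible because replicate numbers followed the accession order and paired no libraries across the strains. Depth was unknown, so values near 0 are only listed values.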

Other observations

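Several families known to vary between strains held no called gene. At the share of 0.631% called over all genes, such short lists mostly hold none. Nnt, the mitochondrial transhydrogenase that is disrupted in the C57BL/6J substrain, was at 4.10, 6.43 and 6.28 FPKM in Balb/c and 2.71 to 6.84 FPKM in C57BL/6 (0.40 ± 0.32, adjusted p = 0.797 by limma), and the labels do not give the C57BL/6 substrain. Gsr, glutathione reductase, was at 5.77, 3.00 and 5.22 FPKM against 8.69 to 23.2 FPKM, without overlap, and its difference of -1.41 ± 0.30 did not pass (adjusted p = 0.051). None of the 6 tested SLAM receptors, 8 GIMAP GTPases, 4 Sp100 family genes, 5 killer cell lectin-like receptors or 13 glutathione transferases was called, with median differences of 0.19, -0.25, 0.37, 0.20 and 0.06.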
